A study of Arabidopsis thaliana with 12 samples.

Results

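The 200 probe sets described here were those whose intensity varied most among 3 replicate arrays of untreated wild-type Arabidopsis thaliana. A probe set is a group of short oligonucleotides that together measure a transcript. The members were taken from 22810 rows of an Affymetrix ATH1 value table. Rows with control identifiers and the first 64 rows were left out, and a mean intensity of at least 200 in the wild type Col-0 was required, which left 10729 eligible rows. The 200 with the largest standard deviation (SD) of log2(intensity + 28) over the 3 Col-0 arrays were kept, so the Col-0 values chose the members and are given as a description without a test.

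The study profiled rosettes of 3-week-old plants that had received no treatment. Each of 4 genotypes was measured on 3 arrays: Col-0, pmr5, pmr6 and plants with both mutations (pmr5 pmr6, called the double mutant). The labels name neither the mutant alleles nor the number of plants behind an array, and call the replicates biological. The p-values thus cover only the spread among these arrays. The pmr mutants were isolated as Arabidopsis plants on which powdery mildew grows poorly, and their cell walls are altered in pectin. PMR6 encodes a pectate lyase-like protein, and PMR5 belongs to a plant-specific family of proteins that act on wall polysaccharides. Transcripts of stress, defence, light and clock responses are known to differ between replicate rosettes of a genotype, since they react to growth conditions, handling and the time of harvest.

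Array medians lay between 168.45 and 190. Values were linear intensities scaled by the authors, and the dimmest values of pmr5 replicate 1 and pmr5 pmr6 replicate 3 were raised, with 5th percentiles of 9.6 and 9.2, where the 10 others had 3 to 5. The arrays were processed in 3 hybridization runs, each with 1 array of every genotype, and the run number equals the replicate number in the labels. Each genotype had the same fluidics module in every run, so module and genotype cannot be told apart. The staining step of pmr5 pmr6 replicate 2 was stopped by the operator.

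The identifiers did not track the values, so the members are called by their rank in Col-0 SD and no gene is named. In 140 pairs of rows whose identifiers belong to 1 gene, the mean levels correlated at r = 0.068 in the deposited order and at r = 0.178 after the control identifiers were moved to the top. The best of all shifts of the identifier column, by 13199 rows, gave r = 0.53, but mean correlation of the profiles across arrays was 0.00083 there. None of 10 stretches of the table, searched separately, gave its highest correlation with the controls moved to the top. Each stretch held only 6 to 22 pairs and was searched over every shift, so this search could hardly have singled out a true order. Since no gene is named, which tissue or cell type the rows mark could not be checked against markers.

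The SD over the Col-0 arrays ran from 0.395 to 1.03 among the members on the log2 scale, with a median of 0.452, against a median of 0.126 over the eligible rows. The members just inside the threshold, ranked 198, 199 and 200, had SDs of 0.3953, 0.3951 and 0.395. The 3 rows just outside had 0.3947, 0.3941 and 0.3937, so the threshold does not fall at a gap. Members were dimmer than the eligible rows in general, with a median Col-0 intensity of 286 against 591 and a range of 200.5 to 4604. In all, 107 members lay at 200 to 300, 51 at 300 to 500 and 42 at 500 or more, which is 5.26%, 2.04% and 0.68% of the eligible rows at those levels. The members were spread along the table, with 14 to 27 in each of 10 equal stretches and no adjacent pair.

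Col-0 replicate 1 was the array that most often stood apart. It was farthest from the mean of the other 2 in 103 members (51.5%), replicate 2 in 47 (23.5%) and replicate 3 in 50 (25%). Among the eligible rows the shares were 37.7%, 31.2% and 31%. Replicate 1 was the low array in 58 members and the high array in 45. Replicate 2 was low in 25 and high in 22, and replicate 3 was low in 26 and high in 24. The median distance of the farthest array from the mean of the other 2 was between 0.73 and 0.76 in each of the 6 patterns.

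The median deviation of the members from their own 12-array mean was -0.31 in Col-0 replicate 1, -0.08 in replicate 2 and -0.095 in replicate 3. It was between -0.004 and 0.109 in the 9 mutant arrays. The first 9 rows of the table, which rise in the order of spiked controls on all 12 arrays though their identifiers are not those of controls, had mean intensities of 4356, 3270 and 2051 on the 3 Col-0 arrays. The part of these rows in the members' spread was not tested. When the members were chosen from 2 Col-0 arrays at a time, 76 of the 200 were chosen again without replicate 1, 120 without replicate 2 and 113 without replicate 3.

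**Figure D1:**
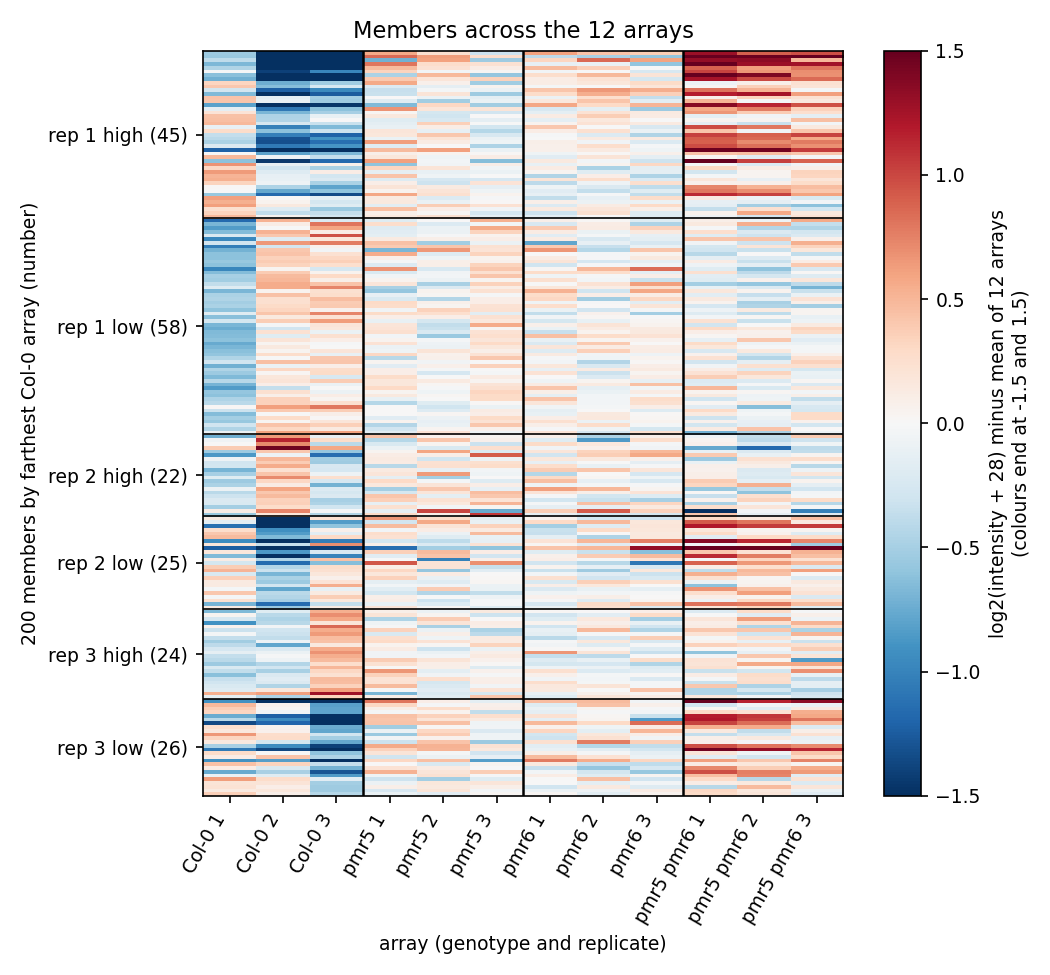
Each line is 1 of the 200 members and each column 1 of the 12 arrays. Colour gives log2(intensity + 28) minus the member's mean over the 12 arrays, with colours ending at -1.5 and 1.5. Lines are grouped by the farthest Col-0 array and its direction, with the number of members in parentheses. Red fills much of the pmr5 pmr6 columns in the block where Col-0 replicate 1 was high (45 members), and the block where it was low (58 members) is pale in all mutants.

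The member with the largest spread, member 1, stood at 3056, 1108 and 744.5 in Col-0 replicates 1, 2 and 3. In pmr5 it stood at 6628, 5281 and 3586, in pmr6 at 6773, 6025 and 5778.5, and in the double mutant at 10893, 8295 and 8748. All 9 mutant arrays lay above the Col-0 arrays, and the double mutant arrays lay above those of both single mutants. The double mutant exceeded pmr5 by 0.88 on the log2 scale (SE 0.15, limma adjusted p = 0.0026) and pmr6 by 0.58 (SE 0.15, limma adjusted p = 0.024). Both tests used only the 9 mutant arrays. The difference from pmr6 missed the threshold in 3 of the 9 fits that left out 1 mutant array, with an adjusted p (limma) of 0.12 without pmr5 pmr6 replicate 1.

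Member 2 had 485, 235 and 95 in Col-0, 1650.1, 1006 and 847 in pmr5, 1299.9, 1310.2 and 901.5 in pmr6, and 2968.5, 2118 and 2419.8 in the double mutant. Here Col-0 replicate 3 was the farthest array, and it was low. The double mutant exceeded pmr5 by 1.13 (SE 0.19, limma adjusted p = 0.0017) and pmr6 by 1.08 (SE 0.19, limma adjusted p = 0.0011) on the log2 scale. Each call held in all 9 fits that left out 1 mutant array.

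Member 3 had the largest difference between the double mutant and pmr6 among the members. It stood at 4509, 1672 and 1133 in Col-0, at 11961, 10209 and 7928.5 in pmr5, at 5036, 4701 and 4374 in pmr6, and at 20593, 18391 and 21226 in the double mutant. Col-0 and pmr6 overlapped, since Col-0 replicate 1 reached 4509 and pmr6 replicate 3 stood at 4374, and no other groups did. The double mutant exceeded pmr6 4.25-fold (log2 2.09, SE 0.11, limma adjusted p = 1.1e-08) and pmr5 2.02-fold (log2 1.02, SE 0.11, limma adjusted p = 4.5e-05). Member 3 was also lower in pmr6 than in pmr5, by 1.07 on the log2 scale (SE 0.11, limma adjusted p = 9.3e-05). All 3 calls held whichever mutant array was left out.

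Members 4, 7, 10 and 12 had mutant arrays around their Col-0 values, and none of the mutant comparisons called them. Member 4 stood at 318, 82.2 and 344 in Col-0, with replicate 2 alone far down. Its mutant arrays lay between 228 and 468, around the other 2 Col-0 arrays. Member 7 stood at 89.5, 349 and 198 in Col-0 and between 204.1 and 361 in the mutants, and member 10 at 181, 338 and 560.1 in Col-0 and between 217 and 464 in the mutants. Member 12 had 109.6, 217 and 341 in Col-0 and 152 to 335 in the mutants. In these 4 members the lowest Col-0 array lay below every mutant array. The highest Col-0 array lay inside the mutant range in members 4 and 7 and above it in members 10 and 12.

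The remaining members of the 12 with the largest spread had their highest mean in the double mutant, as members 1 to 3 did. That was also so in member 7 (277.6 against 264.5 in pmr5), and in member 4 both means were 358.7. Member 5 had means of 227.5, 454, 531.5 and 678 in the order Col-0, pmr5, pmr6 and double mutant, with SDs of 145, 161, 62.6 and 187 (n = 3 each), and no mutant comparison called it. Member 6 had 241 ± 185, 563 ± 318, 927 ± 173 and 1321 ± 401 (SD, n = 3 each). Its double mutant exceeded pmr5 by 1.27 (SE 0.26, limma adjusted p = 0.0097), a call lost in 4 of the 9 fits without 1 array, with 0.061 as the highest adjusted p (limma), without pmr5 pmr6 replicate 2. Members 8, 9 and 11 were called in both comparisons of the double mutant with a single mutant. Member 8 was 1.7-fold above pmr5 and 2.42-fold above pmr6 in the double mutant, and member 9 was 1.93-fold and 3.14-fold above. Member 11 was 1.42-fold above pmr5 and 1.41-fold above pmr6, and both of its calls were lost in some of the fits without 1 array (highest adjusted p 0.1 and 0.077, limma).

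**Figure D2:**
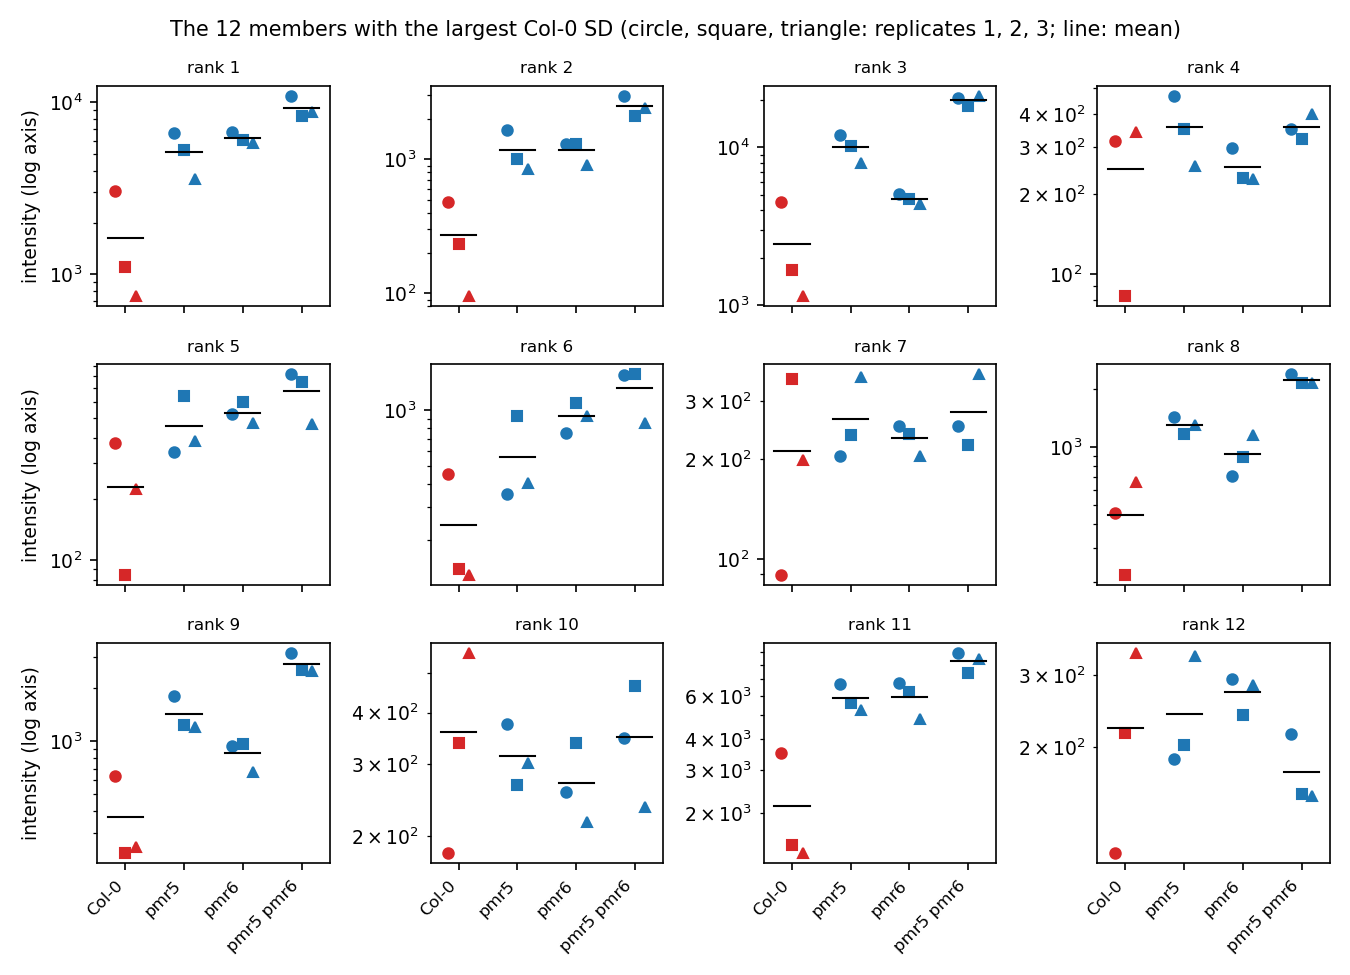
Intensity on a log axis of the 12 members with the largest Col-0 SD. Circles, squares and triangles are replicates 1, 2 and 3, lines are means, Col-0 is red and the mutants are blue. Members 4, 7, 10 and 12 have mutant arrays around the Col-0 values. The other 8, and member 7 by little, have their highest mean in the double mutant, and in member 4 it equals that of pmr5.

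Within the mutants the members varied more than other rows. They varied less than in Col-0, which the choice by Col-0 SD brings about by itself. Over the eligible rows the median SD was 0.126 in Col-0. The median SD of the members was 0.213 in pmr5, 0.164 in pmr6 and 0.214 in the double mutant, against 0.124, 0.107 and 0.124 over the eligible rows. In pmr5 155 members, in pmr6 149 and in the double mutant 166 lay above the eligible median of that genotype. The SD was under 50% of the Col-0 value in 119, 134 and 115 members in the same order, and as large as in Col-0 in 12, 2 and 8. These counts follow largely from the choice by Col-0 SD and were not made over the eligible rows. Pooled over the 3 mutants, the SD had a median of 0.235 against 0.138 over the eligible rows. It reached the members' threshold of 0.395 in 13 of the 200 members and in 75 of the 10729 eligible rows.

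The members' medians were also the higher ones within levels of intensity. At Col-0 means of 200 to 300, the median SD of the members was 0.237 in pmr5, 0.166 in pmr6 and 0.226 in the double mutant, against 0.172, 0.16 and 0.189 over the eligible rows. At 500 and more it was 0.194, 0.19 and 0.172, against 0.108, 0.089 and 0.101. Between these levels the gap was wider among the bright rows in every mutant, and it was narrowest among the dim rows in pmr6. At 300 to 500 the members' medians were 0.177, 0.152 and 0.2, against 0.145, 0.13 and 0.151. In pmr5 the gap was thus narrowest at this middle level. Across the eligible rows the Col-0 SD and the pooled mutant SD had a Spearman coefficient of 0.35 (10729 rows measured on the same arrays), and across the members 0.25.

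The 200 most variable eligible rows were also listed within each mutant. The list of pmr5 shared 33 rows with the members (16.5% of either list), and those of pmr6 and pmr5 pmr6 shared 17 each (8.5%), where 1.86% of the eligible rows enter such a list. In all, 52 members were in at least 1 of these lists and 2 were in all 3, counts that were not made over all eligible rows. The 1.86% is not matched for intensity. Dim rows varied more in every mutant and were frequent among the members, and their part in the overlap was not tested. The farthest array was replicate 1, 2 and 3 in 70, 67 and 63 members in pmr5, in 62, 65 and 73 in pmr6, and in 63, 55 and 82 in the double mutant. Of the 10729 eligible rows, it was replicate 1, 2 and 3 in 3647, 3633 and 3449 in pmr5, in 3447, 3652 and 3630 in pmr6, and in 3115, 3014 and 4600 in the double mutant. Replicate 3 of the double mutant, an array with a raised dim end, was thus the most frequent there among members and eligible rows alike.

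**Figure D3:**
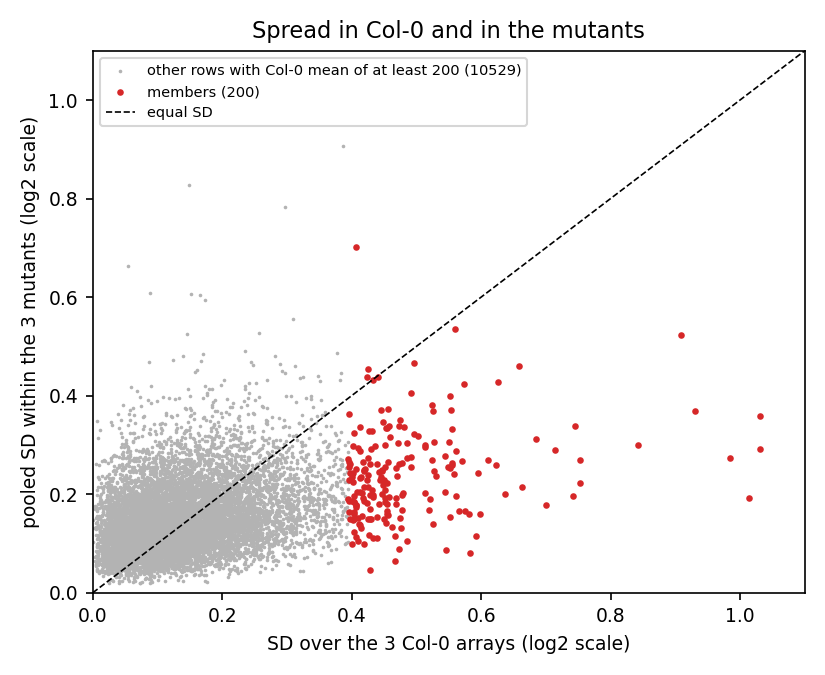
SD over the 3 Col-0 arrays (horizontal) against the pooled SD within the 3 mutants (vertical), both of log2(intensity + 28). Red points are the 200 members, grey points the other eligible rows, and the dashed line marks equal SD. All but a few members lie below the line, as the choice by Col-0 SD favours, and 13 members reach 0.395 or more on the vertical axis.

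The deviation of a Col-0 array was followed into the mutant arrays of the same hybridization run. The mutant array of that run deviated in the same direction in 116 of 200 members in pmr5 (58%), 99 in pmr6 (49.5%) and 102 in the double mutant (51%). Over the eligible rows the shares were 56.2%, 51.1% and 50%. The median deviation in the Col-0 direction was 0.066 in pmr5, -0.004 in pmr6 and 0.007 in the double mutant, against a median distance of 0.74 in Col-0 itself. The shares of equal direction thus lay within 2 percentage points of those of the eligible rows. Across the members, the deviations in Col-0 and in the same run correlated at 0.22 in pmr5, -0.02 in pmr6, 0.07 in the double mutant and 0.16 for the mean of the mutants. Across the eligible rows, which were measured on the same arrays, these values were 0.14, 0.04, 0.02 and 0.11.

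The shares of equal direction differed among the patterns, a difference that was not tested. Of the 45 members with Col-0 replicate 1 high, 32 deviated upward in run 1 in pmr5, 23 in pmr6 and 33 in the double mutant, with median deviations of 0.15, 0.01 and 0.19. Over all eligible rows with that pattern the shares of equal direction were 56.4%, 54.9% and 50.3%. Where Col-0 replicate 1 was low, 30, 27 and 25 of 58 members deviated downward in run 1, against 62.8%, 48% and 46.6% of the eligible rows. Where replicate 3 was low, 18, 15 and 15 of 26 members deviated downward in run 3, against 50.4%, 55.3% and 51%. Where replicate 2 was low, 14, 11 and 7 of 25 members deviated downward in run 2, against 55.1%, 48.8% and 50.7%. With replicate 2 high the counts were 10, 13 and 11 of 22 (eligible rows 48.8%, 45.2% and 54.6%), and with replicate 3 high 12, 10 and 11 of 24 (62.1%, 55.1% and 47.5%).

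A test of the hybridization run in the 9 mutant arrays, with genotype in the model, called 0 of the 200 members and 0% of the 17011 rows tested (moderated F test in limma, Benjamini-Hochberg adjusted p under 0.05). At an unadjusted p under 0.05 there were 41 members (20.5%) against 5.68% of all rows. The smallest p was that of member 144, at 7.8e-05 (limma adjusted p = 0.44). It stood at 281, 146 and 182 in Col-0, at 697, 433 and 278 in pmr5, at 499.5, 432 and 356 in pmr6 and at 1402.4, 949.5 and 849.7 in the double mutant, so replicate 1 was highest in all 4 genotypes. Member 121 was high in different runs in Col-0 and in the mutants. It stood at 496, 921 and 615 in Col-0, where replicate 2 was high, but replicate 1 was the highest array in pmr5 (912, 720.1 and 640.4), pmr6 (1020.1, 674 and 619.9) and pmr5 pmr6 (965, 670.5 and 766), with an adjusted p (limma) of 0.57 for the run.

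Member 171 was the member with the largest SD in pmr5, 0.897. It had 179, 290.5 and 159 in Col-0, 146.5, 356 and 84.5 in pmr5, 219, 335 and 215 in pmr6, and 38.8, 158 and 66.6 in the double mutant. Replicate 2 was highest in every genotype, though the run was not called (limma adjusted p = 0.63). It was lower in the double mutant than in pmr6 by 1.40 on the log2 scale (SE 0.38, limma adjusted p = 0.026), a call that held in 4 of the 9 fits without 1 mutant array.

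The comparisons among the 3 mutants used none of the arrays that chose the members. The choice can still enter the shares called, since the members also varied more within the mutants. The fit draws the variance of each row toward that of rows of like intensity. In the test of the run, 20.5% of members had an unadjusted p under 0.05 (limma), against 5.68% of all rows. Whether the members' spread raised the shares below was not tested. In the fit of the 9 mutant arrays, 34 of the 200 members (17%) differed between pmr5 pmr6 and pmr5, against 3.41% of the 17011 rows tested and 4.51% of the eligible rows (limma, Benjamini-Hochberg adjusted p under 0.05). Of these 32 rose in the double mutant and 2 fell, where 2.1% and 1.31% of all rows rose and fell. Between pmr5 pmr6 and pmr6, 48 members (24%) differed, 38 higher and 10 lower in the double mutant, against 8.64% of all rows (4.49% higher and 4.15% lower) and 11.5% of the eligible rows. Between pmr6 and pmr5, 9 members (4.5%) differed, 2 higher and 7 lower in pmr6, against 0.511% of all rows and 0.718% of the eligible rows. Each pair of these comparisons shares 3 arrays.

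In total 53 members (26.5%) were called in at least 1 of the 3 comparisons, against 12.7% of the eligible rows, and 147 were called in none. Among the members, the median size of the log2 difference was 0.208 between the double mutant and pmr5, 0.239 between the double mutant and pmr6, and 0.188 between the single mutants. Over the eligible rows it was 0.117, 0.146 and 0.108. The members' median signed difference was 0.06, 0.11 and -0.03, against -0.009, 0.03 and -0.03 over all rows tested. At an unadjusted p under 0.05 (limma) there were 30.5%, 35.5% and 22% of the members, against 15.2%, 21.5% and 11.3% of all rows.

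These counts depended on the error model and on single arrays. Without the intensity trend in the variance, the calls fell to 7, 26 and 0 members in the same order, against 0.476%, 2.86% and 0.0235% of all rows. The double mutant differed from pmr5 in 20 members without pmr5 replicate 3 and in 20 without pmr5 pmr6 replicate 1, where 1.96% and 1.68% of all rows were called. For pmr6 against pmr5, leaving out pmr5 replicate 1 gave 3 members and leaving out pmr5 replicate 2 gave 17. Leaving out pmr6 replicate 2 gave 4, pmr6 replicate 3 gave 5, and both arrays with raised dim ends together gave 4. The share of all rows called in these 5 fits was 0.118%, 1.5%, 0.2%, 0.17% and 0.147% in the same order. Member by member, 18 of the 34, 28 of the 48 and 3 of the 9 calls held whichever of the 9 mutant arrays was left out.

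Most calls against pmr5 fell in members where Col-0 replicate 1 was high. Of those 45 members, 21 (46.7%) differed between pmr5 pmr6 and pmr5, all of them higher in the double mutant. Of the 1900 eligible rows with the same pattern 5.84% were called, 4.89% as higher. Against pmr6, 20 (44.4%) members differed, again all higher in the double mutant. Here 14.05% of the eligible rows of that pattern were called, 10.05% as higher, so these rows shared much of the direction. The median difference of the 45 members was 0.48 from pmr5 and 0.38 from pmr6 on the log2 scale. The first count fell to 13 when pmr5 replicate 3 was left out, to 12 when pmr5 pmr6 replicate 1 was, and to 3 when the variance trend was. The share of all rows called fell with it, from 3.41% to 1.96%, 1.68% and 0.476%.

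Where Col-0 replicate 1 was low, 1 of 58 members (1.7%) was called against pmr5 and 5 (8.6%) against pmr6, all lower in the double mutant. The eligible rows with that pattern were called at 3.86% and 10.7%, with only 0.93% and 2.19% as higher. In this pattern, the most numerous, the members' shares rest on 1 and 5 calls, and a difference from the eligible rows was not tested. Where replicate 2 was low, 6 of 25 members (24%) were called against pmr5 and 8 (32%) against pmr6, all higher. The eligible rows of that pattern were called at 5.55% and 12.2%, with 4.69% and 7.4% as higher. Where replicate 3 was low, it was 5 (19.2%) and 7 (26.9%) of 26, also all higher. The eligible rows there were called at 3.86% and 10.7%, with 2.14% and 4.99% as higher. Where replicate 2 was high, 1 of 22 members (4.5%) was called against pmr5, as lower. Against pmr6, 5 (22.7%) were called, 1 higher and 4 lower. The eligible rows of that pattern were called at 4.1% and 11.7%, with 0.87% and 2.83% as higher. Where replicate 3 was high, 0 of 24 were called against pmr5 and 3 (12.5%) against pmr6, 2 higher and 1 lower. The eligible rows there were called at 3.89% and 9.65%, with 1.64% and 3.34% as higher. The difference between the patterns was not tested.

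**Figure D4:**
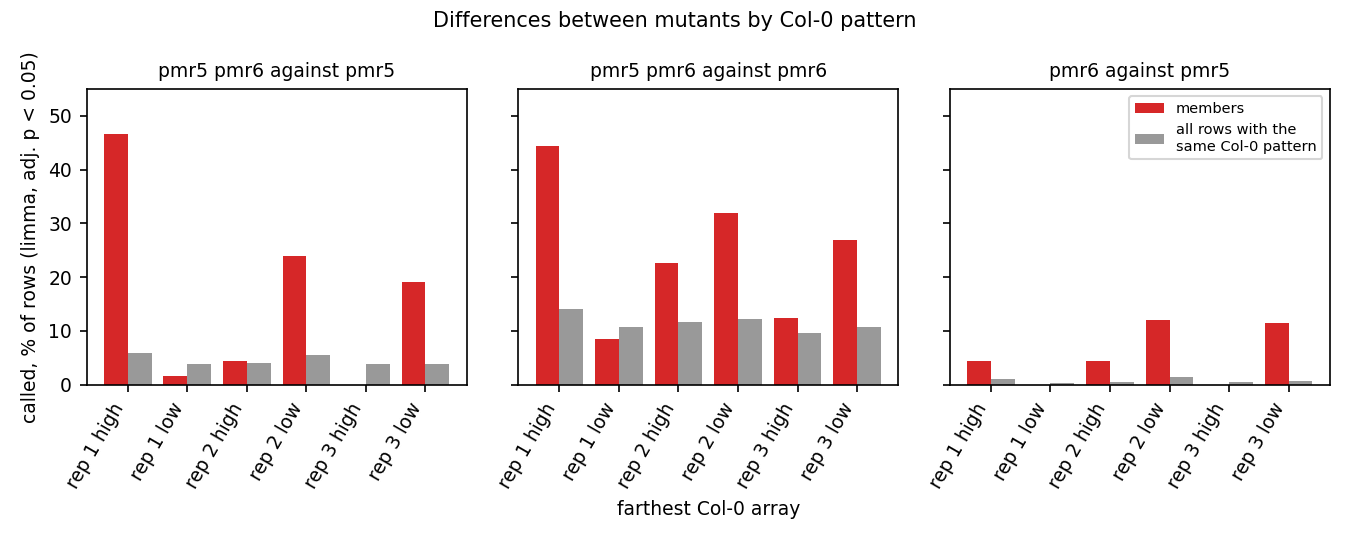
Percent of rows called in each comparison between mutants (limma, adjusted p under 0.05), by the farthest Col-0 array and its direction. Red bars are members and grey bars all eligible rows with the same pattern. The bar for replicate 1 high reaches 46.7% against pmr5 and 44.4% against pmr6. In these 2 comparisons the bars for replicate 1 low stand for only 1 and 5 of 58 members.

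Brighter members were called more often. Against pmr5, 11 of 107 members at 200 to 300 (10.3%), 8 of 51 at 300 to 500 (15.7%) and 15 of 42 at 500 or more (35.7%) differed in the double mutant. The eligible rows at these levels were called at 2.26%, 2.84% and 5.93%. Against pmr6 the members' shares were 15.9%, 19.6% and 50% and those of the eligible rows 4.92%, 5.95% and 15.96%. At each level the share of members was higher than that of the eligible rows, a difference that was not tested.

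The largest increase over pmr5 was that of member 49. It stood at 303, 139 and 266.5 in Col-0, at 324, 518.5 and 484 in pmr5, at 1016, 1069 and 1904 in pmr6 and at 2802.5, 2175 and 2147 in the double mutant. Every step in this order was without overlap. The double mutant exceeded pmr5 5.16-fold (log2 2.37, SE 0.19, limma adjusted p = 1.8e-06) and pmr6 1.83-fold (log2 0.87, limma adjusted p = 0.0074), and pmr6 exceeded pmr5 2.82-fold (limma adjusted p = 0.00076). Of the 9 members that differed between the single mutants, only members 49 and 42 were higher in pmr6.

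Member 42 stood at 873, 425.5 and 821 in Col-0, at 1412.5, 1302 and 1567 in pmr5, at 1981, 2419 and 2913 in pmr6 and at 4450.5, 3806 and 2862 in the double mutant. The arrays of pmr6 lay above all those of pmr5, and pmr5 pmr6 replicate 3 lay just below the highest pmr6 array. The double mutant exceeded pmr5 by 1.34 on the log2 scale (SE 0.14, limma adjusted p = 2.1e-05). Its differences between pmr6 and pmr5 (log2 0.75, limma adjusted p = 0.019) and between pmr5 pmr6 and pmr6 (log2 0.59, limma adjusted p = 0.012) each held in 6 of the 9 fits without 1 mutant array.

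Members 77 and 16 completed the 4 largest increases over pmr5. Member 77 had 253 ± 96.4 in Col-0, 552 ± 227 in pmr5, 908 ± 94.9 in pmr6, with 1492 ± 215 in the double mutant (SD, n = 3 each), a log2 difference of 1.45 from pmr5 (limma adjusted p = 0.00013). Member 16 had 372 ± 198.5, 876 ± 397, 1188 ± 131.5 and 2388 ± 792 in the same order, a log2 difference of 1.44 from pmr5 (limma adjusted p = 0.0013). In both, pmr5 replicate 2 was the highest pmr5 array, at 813 in member 77 and 1334 in member 16.

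Members 98, 41 and 9, with member 3, had the largest increases over pmr6, and in all 4 the mean of pmr6 lay below that of pmr5. Member 98 stood at 779, 622.5 and 407 in Col-0, at 2104, 2358 and 1849 in pmr5, at 1526, 1483 and 1360.1 in pmr6 and at 4549, 4156 and 3677.5 in the double mutant. No genotypes overlapped. The double mutant exceeded pmr6 2.79-fold (log2 1.48, SE 0.10, limma adjusted p = 6.3e-08) and pmr5 1.95-fold (log2 0.96, SE 0.10, limma adjusted p = 1.2e-05). Member 41 was 2.51-fold higher than in pmr6, with means of 264 ± 109.3, 616 ± 65.9, 421 ± 132.5 and 1069 ± 152.5 in the order Col-0, pmr5, pmr6 and double mutant (SD, n = 3 each).

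Members 107 and 91 differed between the single mutants and stood lower in pmr6. Member 107 had 376, 189 and 285 in Col-0, 897, 531 and 756 in pmr5, 369, 337 and 201 in pmr6, and 867, 733 and 653 in the double mutant. Its pmr6 arrays overlapped with Col-0 and its pmr5 arrays with the double mutant. It was 2.3-fold lower in pmr6 than in pmr5 (limma adjusted p = 0.0055), which missed the threshold without pmr5 replicate 1 (limma adjusted p = 0.082). Member 91, the brightest in Col-0, had 4604 ± 1441 in Col-0, 11676 ± 1508.5 in pmr5, 6898 ± 685 in pmr6, with 15298 ± 1429.9 in the double mutant (SD, n = 3 each). It was lower in pmr6 than in pmr5 by 0.75 (SE 0.10, limma adjusted p = 0.0012), and this held in all 9 fits without 1 array.

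Decreases in the double mutant were fewer, and against each single mutant the largest decrease was smaller than the largest increase. Only members 28 and 72 fell against pmr5. Member 28 stood at 321, 705 and 370.4 in Col-0, at 224, 199.7 and 292 in pmr5, at 229.5, 254 and 231 in pmr6 and at 129, 91.6 and 175 in the double mutant, with no overlap between the double mutant and any other group. It fell by 0.76 on the log2 scale against pmr5 (SE 0.20, limma adjusted p = 0.042), and the call held in 2 of the 9 fits without 1 array. Member 72 stood at 199.3, 358 and 389 in Col-0, at 297.6 to 357 in pmr5, at 290.4 to 353.5 in pmr6 and at 238, 205 and 194 in the double mutant. Here the low Col-0 array, replicate 1, was at the level of the double mutant and the other 2 Col-0 arrays were near the level of the single mutants. It fell by 0.58 against pmr5 (SE 0.14, limma adjusted p = 0.026), held in 5 of 9 such fits.

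Against pmr6, member 171 and members 51, 127 and 58 had the 4 largest decreases. Member 51 had 463 ± 134 in pmr6, with 249 ± 41.4 in the double mutant, member 127 had 1049 ± 215 and 589 ± 59.6, and member 58 had 2012 ± 460 and 1151 ± 77.1 (SD, n = 3 each). Their differences on the log2 scale were -0.80, -0.79 and -0.77 (limma adjusted p = 0.026, 0.0092 and 0.007). Member 58 stood at 1254, 2410.5 and 2196 in Col-0, so its replicate 1 was near the double mutant level and its other replicates near that of pmr6. The calls of members 51, 127 and 58 held in 6, 8 and 8 of the 9 fits without 1 array.

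The Col-0 arrays were also placed relative to the range of the 9 mutant arrays. In 70 members (35%) only the farthest Col-0 array lay outside the mutant range, as in member 4, against 22.9% of the eligible rows. In 36 (18%) the farthest array lay inside and the other 2 outside, 25 of them with the 2 below, against 12.5% of the eligible rows (6% with the 2 below). All 3 Col-0 arrays lay below the mutant range in 21 members (10.5%) and above it in 2 (1%), against 4.8% and 6.9% of the eligible rows. All 3 lay inside it in 10 members (5%), against 38.4%. The Col-0 values chose the members, so these shares are a description.

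For the same reason the comparisons with Col-0 are given without a reading. They share the Col-0 arrays. In the fit of all 12 arrays, 40 members were called in pmr5, 38 higher and 2 lower. Of all rows 8.18% were called there (4.24% higher and 3.94% lower), and of the eligible rows 11.1%. In pmr6 31 members were called, 30 higher and 1 lower, against 3.48% of all rows (2.19% higher and 1.29% lower) and 4.71% of the eligible rows. In the double mutant 60 were called, 51 higher and 9 lower, against 19.3% of all rows (9.88% higher and 9.44% lower) and 25.7% of the eligible rows. The members' median log2 difference from Col-0 was 0.18 in pmr5, 0.11 in pmr6 and 0.14 in the double mutant, against 0.03, -0.009 and 0.02 over all rows. Without the variance trend 21 members were called in pmr5, 16 in pmr6 and 47 in the double mutant, where 3.82%, 1.25% and 15.6% of all rows were called.

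The largest such difference was in member 2, whose mean was 272 ± 197.5 in Col-0 and 2502 ± 431 in the double mutant (SD, n = 3 each). Member 118 stood at 770, 483 and 418 in Col-0, at 2546, 2813 and 1716 in pmr5, at 1926, 1997 and 1747 in pmr6 and at 5076, 5006 and 3779 in the double mutant, with no overlap between Col-0, the single mutants and the double mutant. Members 28 and 180 had the largest decreases from Col-0 in the double mutant, of -1.58 and -1.22 on the log2 scale. Member 180 stood at 261, 278 and 453 in Col-0, at 96.5, 142 and 138 in pmr5, at 156, 182.5 and 176 in pmr6 and at 118.5, 116 and 133 in the double mutant, so every mutant array lay below every Col-0 array, and no comparison among the mutants called it. Member 170 stood at 154, 248 and 284 in Col-0 and between 87.9 and 165 in the mutants, where its low Col-0 array lay inside the mutant range.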

How the data were processed

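The deposited table holds linear intensities of 12 ATH1 arrays, which the authors brought to a common level, as the values show. The sources used here do not name the summarization software. Runs, fluidics modules and the stopped staining step were read from the deposited instrument records (unit: other), per the file headers. Groups came from the genotype in the labels. An annotation listed 14016 identifiers, 13513 with 1 gene and 503 with several.

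Tests used log2(intensity + 28), a pseudocount near the 20th percentile of the table (27.6), so folds are on that scale and understate changes of dim rows. After the control and first 64 rows, 22682 remained. The dimmest 25% by mean over all arrays were left out, which kept 17011, with all 10729 eligible rows and all 200 members. Linear models (limma 3.58.1 under R 4.3.3, with eBayes and an intensity trend) were fitted to the 9 mutant arrays (6 residual and 11.6 prior degrees of freedom) and, for Col-0, to 12 arrays (8 and 12.6). Calls had a Benjamini-Hochberg adjusted p under 0.05 over all rows tested. The fits were also run on simulated data, with independent noise and changed rows drawn at random from all rows tested. Those rows were not chosen for their spread, so the simulation does not bear on the members' calls. Python 3.11.15, numpy 2.4.6, pandas 2.3.3 and matplotlib 3.10.9 gave the descriptions and figures.

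The members and lists were chosen with earlier results of these data known. Members named are the 12 with the largest SD, up to 4 per direction in each comparison, the 6 smallest run p-values and those at the threshold. Gene lists and cell type markers were not used, as the identifiers did not track the values. Same-numbered arrays share a run, but their deviations from genotype means correlated at -0.066 to 0.083, so the fits have no block. Alternatives covered the pseudocount, the dim filter, the variance model, the normalization, the number and level of members, the replicate block and each array left out. The number of arrays limits the precision.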

Additional observations from a re-analysis of the deposited data

How the results depend on the processing

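The percentages here are shares of members called, over the members tested (limma, adjusted p under 0.05). For pmr5 pmr6 against pmr5 the share was 17%, and 17 of 20 alternatives gave a value within 1.5 times of it. It was 3.5% without the variance trend and ran from 10% to 19% when 1 mutant array was left out. For pmr5 pmr6 against pmr6 (24%), 19 of 20 were within that range, with 13% without the trend and 16% to 25.5% without 1 array. For pmr6 against pmr5 (4.5%), 13 of 20 were, with 0% without the trend, 2.5% with 400 members, 2% without both arrays with a raised dim end (an alternative chosen after seeing the data) and 1.5% to 8.5% without 1 array. The test of the run called 0% in 18 of 19 alternatives, any array left out included, and 0.5% (1 member) without both arrays with raised dim ends. Against Col-0, the shares without the trend were 10.5% in pmr5 and 8% in pmr6. They ran from 15.5% to 24% in pmr5, 12.5% to 20.5% in pmr6 and 25.5% to 35% in pmr5 pmr6 without 1 array. The median SD of the members in the mutants (0.235) was 0.205 with 400 members, 0.171 with a mean Col-0 intensity of at least 400, and 0.214 to 0.236 without 1 array. Between 76 and 120 members were chosen again without 1 Col-0 array. The shares driven by Col-0 replicate 1 and recurring in the same run stayed near their values in all 6 alternatives each, as did the identity check in its 1. The alternatives for the 45 members with Col-0 replicate 1 high were also added after seeing the data. The cause of these changes was not tested. The fits that left out arrays also had fewer arrays.

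With the replicate block, 18.5%, 24% and 5.5% of members were called among the mutants and 21.5%, 17.5% and 30.5% against Col-0, each within 1.5 times of the value without it. Over all rows tested, the deviations from genotype means correlated over 0.1 in no same-numbered pair of arrays. Across the members, the deviations of the farthest Col-0 array and of the same run in pmr5 correlated at 0.22. Pairing by run was taken from the instrument records.

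Dim rows limit these results, since 107 of 200 members had Col-0 means under 300, where noise is large on the log2 scale. Without detection calls in the table, it is unknown whether a low value was above background.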
